A study of Mus musculus with 25 samples.

Results

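The RNA of 10 myeloid cytokine receptor genes was compared between Znf143 -/- and Znf143 f/f hematopoietic stem cells. The 10 genes, Csf1r, Csf2ra, Csf2rb, Csf2rb2, Csf3r, Il3ra, Il6ra, Il6st, Il1r1 and Ifngr1, were chosen by function, with earlier results of these data known. All of them are among the 23116 genes of the deposited expression table. RNA-seq was performed on HSLAM cells (LSK+ CD150+ CD48-), a bone marrow gate for hematopoietic stem cells, from 3 Znf143 f/f and 3 Znf143 -/- adult male C57BL/6 littermates. Znf143 f/f mice lacked Rosa26ERT2-Cre and Znf143 -/- mice carried it. All mice of both groups had floxed Znf143 alleles, with loxP sites on either side of exon 1, and all received tamoxifen, which activates this Cre. The Cre is made from the Rosa26 locus in most tissues, so that deletion was not limited to blood cells, and Znf143 f/f mice do not control for the Cre itself. The labels call the groups WT and CTCF KO, whereas the study describes the deleted gene as Znf143, which encodes a zinc finger transcription factor and is listed in the table under its mouse symbol Zfp143.

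Cytokine receptors of myeloid cells bind growth factors outside the cell and pass the signal to kinases inside it. CSF1R is itself a tyrosine kinase and binds M-CSF and IL-34. The receptors for GM-CSF and IL-3 pair a ligand-binding alpha chain (CSF2RA, IL3RA) with a signalling beta chain, CSF2RB. Mice carry a close copy of the beta chain, CSF2RB2, which serves IL-3 alone. IL6RA pairs with the signalling chain gp130 (IL6ST), CSF3R binds G-CSF as a homodimer, IL1R1 needs the accessory chain IL1RAP, and IFNGR1 binds interferon gamma beside IFNGR2. Stem cells carry some of these receptors at low levels, and their levels are in general higher in committed myeloid cells.

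Csf2rb and Csf2rb2 are neighbours on chromosome 15 (GRCm38, GENCODE vM21), with Csf2rb at chr15:78325752-78353847 on the plus strand and Csf2rb2 at chr15:78282507-78305721 on the minus strand. Their coding sequences were identical at 95.24% of 2628 aligned bases and differed at 125. The stretch of 90 coding bases with the most differences is shown because it lets the reads of the copies be told apart, with the 16 differing bases in capitals (coding bases 308 to 397 of Csf2rb and 311 to 400 of Csf2rb2).
Csf2rb: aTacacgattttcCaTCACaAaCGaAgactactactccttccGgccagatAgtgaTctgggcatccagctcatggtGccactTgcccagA
Csf2rb2: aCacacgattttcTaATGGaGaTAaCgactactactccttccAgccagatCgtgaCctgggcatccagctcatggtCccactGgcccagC
The longest run without a difference, 242 bases at coding bases 2083 to 2324 of both genes, is shown because a read of 76 bases that falls inside it cannot by itself be assigned to either copy.
Csf2rb and Csf2rb2: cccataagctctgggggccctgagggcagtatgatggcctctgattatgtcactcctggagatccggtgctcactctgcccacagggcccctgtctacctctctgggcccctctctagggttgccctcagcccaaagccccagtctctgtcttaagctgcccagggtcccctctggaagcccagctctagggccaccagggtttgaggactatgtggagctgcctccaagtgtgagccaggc
Of the 76-base windows of Csf2rb transcripts, 507 (7.00%) also occurred in Csf2rb2, and these were 10.4% of the windows of Csf2rb2. Reads were sequenced in pairs, and a mate outside these windows can place a fragment, so the shares are those of single reads and not of fragments. How the counting treated such reads is not given in the sources used here, so the levels of both genes are uncertain by the reads of these windows.

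Promoter sequence, from 250 bases before to 50 bases after a start site, was matched in RefSeq (GRCm38.p6) for 8 of the 10 genes. The promoters of Il3ra and Il1r1 are shown because the RNA of these genes differed between genotypes in the test described below, and that of Csf2rb2 because it holds the same motif as Il3ra. Capitals mark matches to AGGAAGT, the core bound by the myeloid transcription factor PU.1, on either strand.
Il3ra, chr14:14346245-14346544, plus strand: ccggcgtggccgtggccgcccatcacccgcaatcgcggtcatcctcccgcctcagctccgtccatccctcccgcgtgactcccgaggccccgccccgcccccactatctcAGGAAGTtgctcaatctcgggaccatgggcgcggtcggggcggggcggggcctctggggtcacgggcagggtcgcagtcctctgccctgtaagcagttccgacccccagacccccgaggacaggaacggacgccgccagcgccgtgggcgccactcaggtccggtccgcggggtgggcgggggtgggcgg
Csf2rb2, chr15:78305672-78305971, minus strand: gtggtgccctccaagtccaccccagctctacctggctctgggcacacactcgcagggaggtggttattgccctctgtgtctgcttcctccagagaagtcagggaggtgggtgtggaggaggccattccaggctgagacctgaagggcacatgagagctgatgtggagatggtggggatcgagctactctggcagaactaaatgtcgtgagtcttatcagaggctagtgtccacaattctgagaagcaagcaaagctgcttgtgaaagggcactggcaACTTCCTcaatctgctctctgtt
Il1r1, first start site, chr1:40224830-40225129, plus strand: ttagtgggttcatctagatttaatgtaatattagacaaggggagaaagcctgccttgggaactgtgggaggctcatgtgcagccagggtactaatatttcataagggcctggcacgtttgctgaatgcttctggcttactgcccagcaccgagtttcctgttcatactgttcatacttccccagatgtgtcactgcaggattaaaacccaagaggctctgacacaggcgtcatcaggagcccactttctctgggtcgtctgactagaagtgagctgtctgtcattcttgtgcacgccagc
Il1r1, second start site, chr1:40266336-40266635, plus strand: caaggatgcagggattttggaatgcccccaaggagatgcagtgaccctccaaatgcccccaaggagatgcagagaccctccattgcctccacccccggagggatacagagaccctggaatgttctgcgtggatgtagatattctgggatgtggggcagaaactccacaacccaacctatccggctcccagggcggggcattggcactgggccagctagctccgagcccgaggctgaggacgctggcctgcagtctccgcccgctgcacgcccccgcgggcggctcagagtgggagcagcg
AGGAAGT was found at position -140 of Il3ra, counted from the RefSeq start site, at position -174 of Il6ra, counted likewise, and on the opposite strand 27 bases after the Csf2rb2 start. In GENCODE vM21, Il3ra starts earlier, at chr14:14346275. By that start the Il3ra match and most of the promoter shown lie inside the gene. It occurred in 9.35% of all 32851 promoters of the same length. No match to TGTGGTT (RUNX factors, 5.27% of all promoters), TTGCGNAA (C/EBP factors, 0.798%) or ACTACAA (ZNF143, 3.24%) was found in the promoters of the receptor genes, either strand being searched. Only these exact letters were searched, so sites that differ from them would be missed. A lack of binding sites for these factors was therefore not shown. The promoter of Il3ra was 74.33% GC with 35 CpG, whereas that of Csf2rb2 was 55.0% GC with 3 CpG, against medians of 52.667% and 7 over all promoters.

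Levels are given as FPKM, fragments scaled to the length of the gene and the size of the library, after division by 1 size factor for each library. The rescaling was needed because the deposited FPKM of the third Znf143 -/- library carry the divisor of the second (48378188), whereas 57895793 fragments lay on its genes. Libraries held from 38643255 to 57895793 fragments on genes. The targeted gene, Zfp143, had 3.07, 4.43 and 3.66 FPKM in Znf143 f/f cells and 0.155, 0.298 and 0.270 in Znf143 -/- cells. All Znf143 -/- libraries were below all Znf143 f/f libraries, by 3.50 on the log2 scale (SE 0.239, adjusted p = 0.00100, limma). Ctcf, which the label names, had 30.3, 32.5 and 30.2 FPKM against 31.7, 27.1 and 26.5 FPKM, with overlap (log2 fold change -0.13, 95% interval -0.36 to 0.10, adjusted p = 0.468, limma). The fit called 578 genes higher and 576 lower at an adjusted p under 0.05, of 19279 tested. On FPKM as deposited, it called 529 higher and 304 lower, and the median log2 fold change of all genes was 0.114 in place of 0.006.

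The first and the third Znf143 f/f library, and the second and the third Znf143 -/- library, were far more alike than any other libraries. Their median chi-square per gene, which is 0.455 for counting noise alone, was 1.27 and 1.34, against 8.96 to 11.3 in the other 4 pairs of a genotype and 10.2 to 16.7 between genotypes. Between 2.57% and 3.17% of genes differed over 2-fold within these alike pairs, against 9.18% to 14.04% in the other pairs of a genotype. They differed by more than sampling noise, and were therefore kept as separate libraries in the main comparison of 3 against 3. The study describes 3 mice of each genotype, but the labels do not tie a library to a mouse. If alike libraries nevertheless share a mouse or an RNA sample, each genotype holds 2 independent samples and the p-values below are too small, so each call is also given with the alike libraries averaged (2 against 2). On that basis 47 of 19317 genes tested were called (0.243%), all of them among the 1154 called with 6 libraries.

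In Znf143 f/f cells the levels of the receptor genes per length spanned a wide range. Ifngr1, with 37.0 FPKM ± 4.30 (SD, n = 3), had the highest level, followed by Csf3r at 15.2 ± 1.62 and Csf2ra at 14.6 ± 2.26, whose libraries overlapped. Il3ra (5.51 ± 0.408) and Csf2rb (4.81 ± 1.05) came next and also overlapped. Csf2rb2 (1.10 ± 0.0867) overlapped with Il6st (1.04 ± 0.0113), and Il6ra (0.835 ± 0.0599) and Il1r1 (0.338 ± 0.0799) followed with no overlap between neighbours. Csf1r was close to 0. The order in Znf143 -/- cells was the same but for Il1r1 and Il6ra, which changed places and overlapped, and there Il3ra no longer overlapped with Csf2rb, nor Csf2rb2 with Il6st. The gap between Il3ra and Csf2rb was narrow (7.89 against 7.82 FPKM in the nearest libraries), and on FPKM as deposited they overlapped. The listed gene length used for FPKM equals the exonic bases of GENCODE vM21 for 6 of the 10 genes, so that levels of Csf1r, Csf2ra, Csf2rb and Csf2rb2 rest on a gene model that differs from it.

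**Figure D1:**
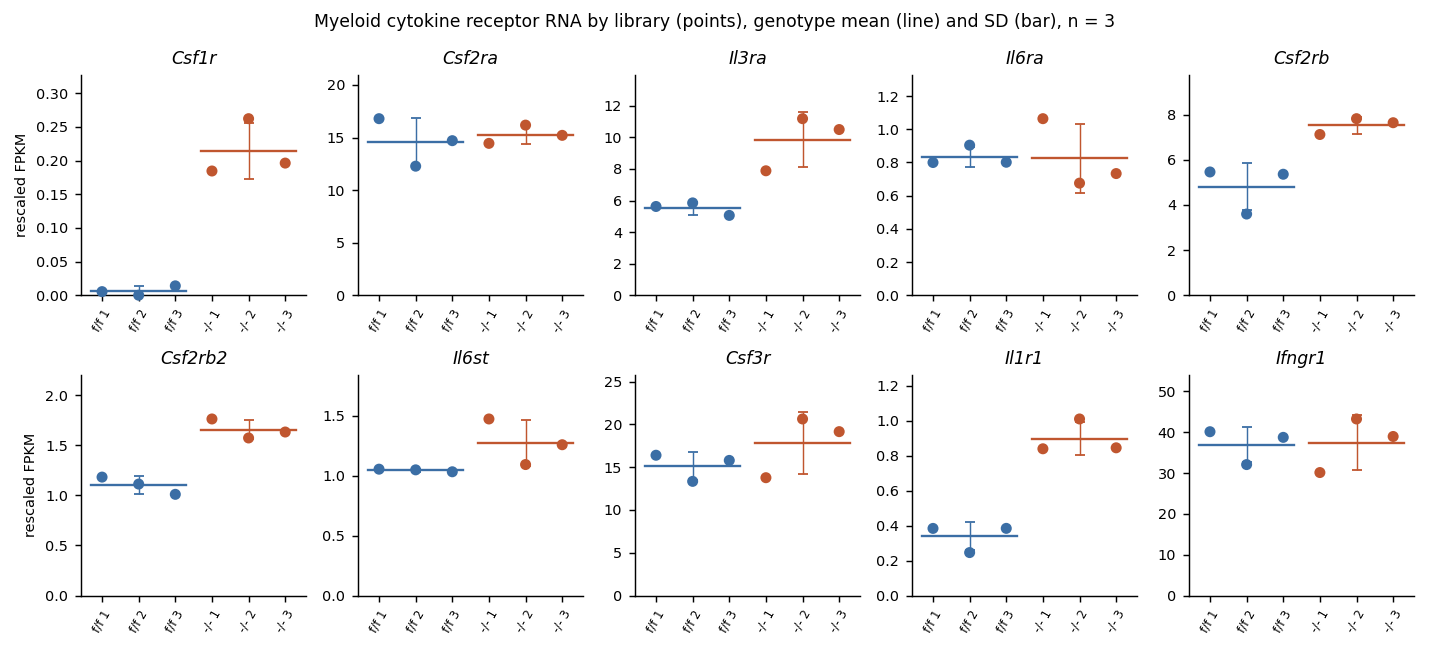
Rescaled FPKM (y axis, starting at 0, 1 scale a gene) of the 10 receptor genes in each of 3 Znf143 f/f (blue) and 3 Znf143 -/- (red) libraries, with the mean of each genotype as a line and the SD as a bar. All Znf143 -/- libraries lie above all Znf143 f/f libraries for Csf1r, Il3ra, Csf2rb, Csf2rb2, Il6st and Il1r1, and the libraries of the genotypes overlap for the other 4 genes.

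Of the 10 receptor genes, 3 rose in Znf143 -/- cells (Il3ra, Il1r1 and Csf1r), none fell and 7 did not pass the test (limma, adjusted p under 0.05 over all genes tested). Of all genes tested, 3.0% were called higher and 2.99% lower. At an unadjusted p under 0.05, 5 receptor genes were higher (12.4% of all genes tested) and none was lower, and limma's voom on recovered fragments called 4 higher (3.40% of all genes) and none lower. The 3 Znf143 -/- libraries lay above the 3 Znf143 f/f libraries for 6 of the 10 genes and below them for none, against 15.4% of all genes above and 15.3% below. The median log2 fold change was 0.40 over the 10 genes and 0.006 over all genes tested. Csf1r entered the test only through its level in Znf143 -/- cells and had to differ. The counts and the median, which include it, are therefore given as a description. With the alike libraries averaged, limma called none of the 10 genes (4 were higher at an unadjusted p under 0.05, against 5.16% of all genes, and 0.243% of all genes were called). The exact permutation test of 3 against 3 cannot go below p = 0.1, and of 2 against 2 not below 0.333. In bulk RNA, more cells that carry a receptor and more of its RNA in each cell cannot be told apart.

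Il3ra encodes the alpha chain of the IL-3 receptor and lies at chr14:14346275-14356011 on the plus strand. Its level was 5.62, 5.85 and 5.06 FPKM in Znf143 f/f cells and 7.89, 11.2 and 10.5 FPKM in Znf143 -/- cells, from 642 to 1819 fragments. The lowest Znf143 -/- library, the first, was above the highest Znf143 f/f library. The rise was 0.81 on the log2 scale (SE 0.151, 95% interval 0.46 to 1.17, adjusted p = 0.0308, limma). On FPKM as deposited the adjusted p was 0.0512 with a log2 fold change of 0.93, and with the alike libraries averaged it was 0.345, in a range of 0.00965 to 0.468 over 17 alternatives. Without the first or the third Znf143 f/f library, or the second or the third Znf143 -/- library, it was 0.105, 0.130, 0.103 and 0.145, respectively.

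Il1r1 encodes the signalling receptor for IL-1 and lies at chr1:40225080-40317257 on the plus strand. It had 0.384, 0.246 and 0.384 FPKM in Znf143 f/f cells and 0.840, 1.01 and 0.845 FPKM in Znf143 -/- cells, from 77 to 316 fragments. Each Znf143 -/- library was above each Znf143 f/f library, and the smallest gap was wider than the whole range within either genotype. The log2 fold change was 1.20 (SE 0.222, 95% interval 0.67 to 1.73, adjusted p = 0.0309, limma), which is on the scale of FPKM + 0.1 and understates low genes. With the alike libraries averaged it was 1.26 (adjusted p = 0.337), and the adjusted p ranged from 0.0136 to 0.419 over 16 alternatives. Without the first or the third Znf143 f/f library, or the second or the third Znf143 -/- library, it was 0.0891, 0.0990, 0.129 and 0.141.

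Csf1r, the receptor for M-CSF and the defining receptor of monocytes and macrophages, was near the limit of detection. It had 1, 0 and 3 fragments in Znf143 f/f cells and 40, 63 and 56 in Znf143 -/- cells, which is 0.00532, 0 and 0.0139 against 0.185, 0.262 and 0.196 FPKM. All Znf143 f/f libraries were at or under a floor of 3 fragments, and all Znf143 -/- libraries were above it. Summed over libraries and scaled for their size, the ratio was 34.5 (95% exact interval 13.2 to 128, which covers counting error only). The fitted log2 fold change was 1.56 (SE 0.289, adjusted p = 0.0310, limma), but it depends on the constant added to FPKM, with 0.27 at 1 and 3.85 at 0.01. The adjusted p was 0.426 with the alike libraries averaged, 0.114 without the first and 0.116 without the third Znf143 f/f library, in a range of 0.00498 to 0.511 over 13 alternatives, and Csf1r was under the filter without any 1 of the Znf143 -/- libraries. In GENCODE vM21, 873 exonic bases of Csf1r overlap Hmgxb3 on the opposite strand, and the library kit does not mark strand. The listed length of Csf1r is 4885 bases against 5774 exonic bases in GENCODE vM21, so whether the counted gene model holds this overlap is not known. Hmgxb3 had 1.55 to 2.13 FPKM in Znf143 f/f and 1.99 to 2.28 FPKM in Znf143 -/- cells (adjusted p = 0.627), and its part in the Csf1r fragments was not tested.

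The beta chains did not pass the test, although their libraries did not overlap. Csf2rb, which signals for GM-CSF and IL-3, had 5.46, 3.60 and 5.36 FPKM in Znf143 f/f and 7.12, 7.82 and 7.64 FPKM in Znf143 -/- cells. Csf2rb2, which signals for IL-3 alone, had 1.18, 1.11 and 1.01 FPKM against 1.76, 1.57 and 1.63 FPKM. Both were thus higher in each Znf143 -/- library than in any Znf143 f/f library, by the values that follow. The log2 fold change of Csf2rb was 0.66 (SE 0.173, 95% interval 0.25 to 1.07, adjusted p = 0.0755, limma) and that of Csf2rb2 was 0.55 (SE 0.142, 95% interval 0.21 to 0.89, adjusted p = 0.0742). Csf2rb passed the test without the second Znf143 f/f library, which had its lowest level (log2 fold change 0.47, adjusted p = 0.0304), and by voom on recovered fragments (adjusted p = 0.0486), in a range of 0.0304 to 0.507 over the alternatives.

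The other receptor genes showed no difference that passed the test. Csf2ra, the alpha chain of the GM-CSF receptor, had 16.8, 12.3 and 14.7 FPKM in Znf143 f/f and 14.4, 16.2 and 15.2 FPKM in Znf143 -/- cells. Csf3r, the G-CSF receptor, had 16.4, 13.3 and 15.8 against 13.8, 20.6 and 19.1 FPKM, and Ifngr1, the binding chain for interferon gamma, had 40.1, 32.1 and 38.7 against 30.1, 43.2 and 38.9 FPKM. For these 3 genes the libraries of the genotypes overlapped, and the first Znf143 -/- library was the lowest of its genotype. The 95% intervals of the log2 fold change were -0.23 to 0.38 for Csf2ra, -0.19 to 0.62 for Csf3r and -0.37 to 0.38 for Ifngr1, so that a rise or fall of over 2-fold lies outside them.

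The 2 chains of the IL-6 receptor were both near 1 FPKM. Il6ra had 0.800, 0.904 and 0.801 FPKM in Znf143 f/f and 1.06, 0.675 and 0.733 FPKM in Znf143 -/- cells, with the first Znf143 -/- library above and the other two below all Znf143 f/f libraries. Il6st had 1.05, 1.05 and 1.03 FPKM against 1.47, 1.09 and 1.26 FPKM. The Il6st libraries did not overlap, but the difference was within the spread of the Znf143 -/- libraries (log2 fold change 0.25, SE 0.164, 95% interval -0.14 to 0.65, adjusted p = 0.396, limma). For Il6ra the log2 fold change was -0.04 (SE 0.211, 95% interval -0.54 to 0.47, adjusted p = 0.935). In GENCODE vM21, 242 exonic bases of Il6ra overlap Gm42809 on the opposite strand, and the library kit does not mark strand. Gm42809 had 3.5, 2.8 and 4.0 FPKM in Znf143 f/f and 6.5, 2.9 and 4.0 FPKM in Znf143 -/- cells (adjusted p = 0.584, limma). Its part in the Il6ra fragments, and so in the ratio of Il6ra to Il6st below, was not tested.

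**Figure D2:**
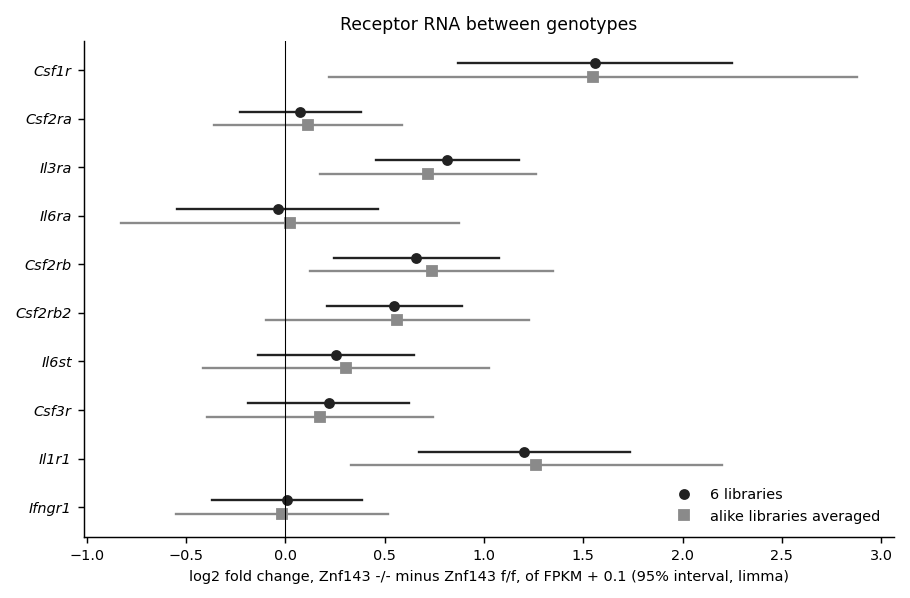
Log2 fold change of FPKM + 0.1, Znf143 -/- minus Znf143 f/f, with its 95% interval for each receptor gene, from the fit of 6 libraries (black circles) and from the fit with the alike libraries averaged (grey squares). The values of both fits lie close together, and the intervals of the averaged fit are the wider ones, with those of Csf1r, Il3ra, Csf2rb and Il1r1 above 0 before adjustment. Csf1r entered the test only through its level in Znf143 -/- cells and had to differ.

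Receptor chains that work as a pair were also compared as a ratio within each library, which does not depend on the scaling between libraries. Of 7 ratios, the libraries of the genotypes did not overlap in 4 and overlapped in 3. As a background, 30.7% of all single genes tested did not overlap in either direction, and no such share was computed for ratios of other genes. With 3 against 3 libraries the exact permutation test gave the smallest p it can, 0.1, for each of these 4 (0.175 adjusted over the 7), so that none passed 0.05.

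The ratio of the GM-CSF alpha chain to its beta chain, Csf2ra to Csf2rb, was 3.08, 3.41 and 2.74 in Znf143 f/f cells and 2.03, 2.07 and 1.99 in Znf143 -/- cells. It was lower in each Znf143 -/- library, and the 3 of these lay within a narrow range. For the IL-3 receptor, the ratio of Il3ra to Csf2rb was 1.03, 1.63 and 0.944 against 1.11, 1.43 and 1.37 (exact p = 0.7). The ratio of Csf2rb to Csf2rb2 was 4.62, 3.23 and 5.30 against 4.04, 4.97 and 4.68 (exact p = 0.8), and that of Il3ra to Csf2rb2 was 4.75, 5.25 and 5.0 against 4.47, 7.11 and 6.43 (exact p = 0.4). The genotypes overlapped in these 3 ratios.

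Il1r1 against its accessory chain Il1rap showed the widest shift of the 7 ratios. It was 0.270, 0.271 and 0.315 in Znf143 f/f cells and 1.51, 0.824 and 0.781 in Znf143 -/- cells, a difference of 1.80 in the mean log2 ratio (1.97 with the alike libraries averaged). The first Znf143 -/- library, with the lowest Il1rap, stood above the other two. Ifngr1 to Ifngr2 was 3.76, 4.75 and 3.87 against 1.90, 3.17 and 2.73, lower in each Znf143 -/- library. Il6ra to Il6st was 0.759, 0.863 and 0.777 against 0.723, 0.619 and 0.583, also lower in each, with a gap between genotypes that was smaller than the spread within either.

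**Figure D3:**
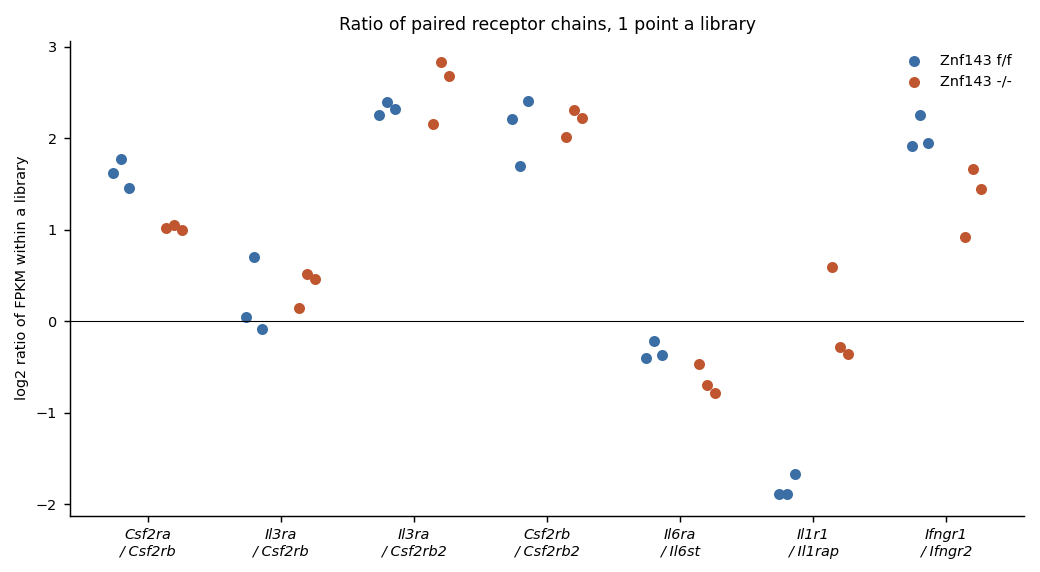
Log2 ratio of the FPKM of 2 receptor chains within each library (y axis) for 7 pairs of chains, in Znf143 f/f (blue) and Znf143 -/- (red) libraries. The genotypes lie apart for Csf2ra to Csf2rb, Il6ra to Il6st, Il1r1 to Il1rap and Ifngr1 to Ifngr2, and overlap for the 3 ratios of the IL-3 receptor chains.

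Of the partner chains and decoys of these receptors, 8 genes were in the table and 5 were tested, of which none passed the test (3 at an unadjusted p under 0.05 by limma, 2 by voom at an adjusted p under 0.05). Ifngr2, the second chain for interferon gamma, had 10.7, 6.75 and 10.01 FPKM in Znf143 f/f and 15.9, 13.7 and 14.3 FPKM in Znf143 -/- cells (log2 fold change 0.69, SE 0.181, adjusted p = 0.0747, limma). Il1r2, the decoy receptor for IL-1, had 0.735, 0.447 and 0.522 against 1.16, 1.11 and 0.942 FPKM (0.83, SE 0.219, adjusted p = 0.0775). Both were higher in each Znf143 -/- library. Il1rap had 1.42, 0.908 and 1.22 against 0.556, 1.23 and 1.08 FPKM, with overlap. Of the chains that share gp130, Il11ra1 had 33.5, 36.0 and 32.6 against 22.7, 27.3 and 26.5 FPKM (-0.42, SE 0.0989, adjusted p = 0.0587) and Il27ra had 18.1 to 19.3 against 18.5 to 22.2 FPKM. Ifngr2 passed the test without the second Znf143 f/f library (adjusted p = 0.0346) and Il11ra1 without the first Znf143 -/- library (adjusted p = 0.0446). Lifr, Osmr and Cntfr, which pair with gp130 for other ligands, stayed at or under 0.113 FPKM in every library and were not tested.

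Among 23 other cytokine receptors of blood cells, 21 were tested, of which 4 rose, none fell and 17 did not pass. Of all genes tested, 3.0% were called higher and 2.99% lower. The median log2 fold change of this list was 0.013. The Znf143 -/- libraries lay above all Znf143 f/f libraries for 9 genes and below them for 4, against 15.4% of all genes above and 15.3% below. Of the genes called, Il10ra entered the test only through its level in Znf143 -/- cells and had to differ. Flt3, the receptor tyrosine kinase of multipotent and lymphoid-primed progenitors, had 5.39, 4.97 and 5.14 FPKM in Znf143 f/f and 16.0, 15.5 and 15.8 FPKM in Znf143 -/- cells. Its libraries were tight within each genotype and far apart between them (log2 fold change 1.59, SE 0.0809, adjusted p = 0.000415, limma), and it was the only 1 of the 21 called with the alike libraries averaged (adjusted p = 0.0405, in a range of 0.000132 to 0.0710 over 17 alternatives). Il10ra, the binding chain for IL-10, had 0.0371, 0 and 0.0776 against 1.16, 1.34 and 1.11 FPKM (3.27, SE 0.282, adjusted p = 0.00229, 0.0752 with the alike libraries averaged). Il18rap, the accessory chain for IL-18, rose by 0.87 (SE 0.169, adjusted p = 0.0357) and Il2rg, the common gamma chain, by 0.61 (SE 0.134, adjusted p = 0.0491). With the alike libraries averaged their adjusted p were 0.409 and 0.345, and on FPKM as deposited 0.0607 and 0.0813. Without the first or the third Znf143 f/f library, or the second or the third Znf143 -/- library, their adjusted p lay between 0.0948 and 0.182.

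**Figure D4:**
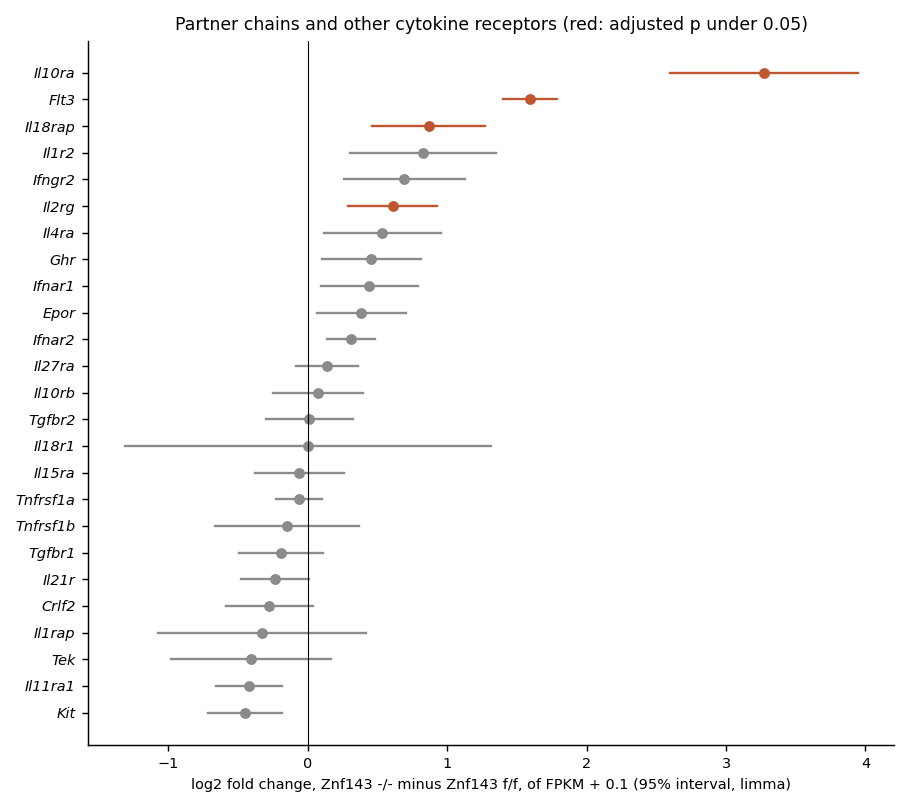
Log2 fold change of FPKM + 0.1 with its 95% interval for 5 partner chains and decoys and 20 of the 21 other cytokine receptors, ordered by value, from the fit of 6 libraries, with those at an adjusted p under 0.05 in red. Il10ra, Flt3, Il18rap and Il2rg rose at that threshold, and no receptor of this set fell at it. Il10ra entered the test only through its level in Znf143 -/- cells and had to differ.

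Of 20 signalling genes downstream of these receptors (JAK kinases, STAT factors, adaptors, phosphatases and ubiquitin ligases), none passed the test (limma, 4 at an unadjusted p under 0.05, 1 by voom), and their median log2 fold change was 0.01. Of 14 genes that such receptors induce, 1 rose, against 3.0% of all genes tested. It was the survival kinase gene Pim1, with 30.0, 56.4 and 31.6 FPKM in Znf143 f/f and 75.8, 109 and 102 FPKM in Znf143 -/- cells (log2 fold change 1.32, SE 0.266, adjusted p = 0.0391, limma). The second Znf143 f/f library, the highest of its genotype, was still below all Znf143 -/- libraries. The Pim1 adjusted p was 0.330 with the alike libraries averaged and 0.125 to 0.154 without the first or the third Znf143 f/f or the second or the third Znf143 -/- library. Of 6 genes of receptor shedding and internalisation, none passed (1 at an unadjusted p under 0.05, none by voom).

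Of 8 transcription factors that regulate myeloid receptor genes, 1 rose and 2 fell, against 3.0% of all genes tested called higher and 2.99% lower. Gfi1, a repressor that favours granulocytes, had 3.27, 2.59 and 3.05 FPKM in Znf143 f/f and 6.41, 7.81 and 8.05 FPKM in Znf143 -/- cells (log2 fold change 1.29, SE 0.139, adjusted p = 0.00568, 0.129 with the alike libraries averaged). Cebpa, which activates Csf3r and other myeloid receptor genes, had 1.77, 1.65 and 1.51 against 1.04, 0.872 and 0.994 FPKM (-0.71, SE 0.152, adjusted p = 0.0462). Runx1 had 8.56, 8.19 and 8.96 against 6.14, 6.35 and 6.56 FPKM (-0.43, SE 0.0867, adjusted p = 0.0399). For these 3 genes the libraries of the genotypes did not overlap, as was so for 30.7% of all genes tested in either direction. Cebpa and Runx1 did not pass on FPKM as deposited (adjusted p = 0.178 and 0.389) or with the alike libraries averaged (0.501 and 0.513), and without the first or the third Znf143 f/f or the second or the third Znf143 -/- library their adjusted p lay between 0.145 and 0.187. Spi1, which encodes PU.1, had 57.2 to 60.6 against 47.7 to 50.05 FPKM (-0.28, adjusted p = 0.0756). It is given because its motif was searched.

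Of 8 ligands of these receptors in the table, 7 were tested, with 1 higher and 1 lower, against 3.0% and 2.99% of all genes tested. Ctf1, a ligand of gp130 with LIFR, fell from 12.8, 11.6 and 13.3 FPKM to 3.51, 4.14 and 4.01 FPKM (-1.67, SE 0.107, adjusted p = 0.000824, 0.0524 with the alike libraries averaged). Il1b, the ligand of Il1r1, had 0.477, 0.373 and 0.593 against 0.957, 1.21 and 1.10 FPKM (1.04, SE 0.213, adjusted p = 0.0408, 0.392 with the alike libraries averaged and 0.0561 on FPKM as deposited). Without the first or the third Znf143 f/f or the second or the third Znf143 -/- library, the adjusted p of Il1b lay between 0.0923 and 0.182.

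The RNA of the sort markers and of other cell types moved with the genotype as well. The counts called in these marker lists stand beside 3.0% of all genes tested called higher and 2.99% lower. Of the 4 genes of the gate, Ly6a (Sca-1) rose from 239 to 288 FPKM to 550.1 to 602 FPKM (log2 fold change 1.13, SE 0.113, adjusted p = 0.00452) and Cd48, the marker absent from gated cells, from 9.56 to 11.1 to 19.6 to 20.4 FPKM (0.97, SE 0.0895, adjusted p = 0.00307). With the alike libraries averaged their adjusted p were 0.144 and 0.140. Kit had 19.4 to 22.1 against 13.5 to 16.8 FPKM (adjusted p = 0.0659) and Slamf1 (CD150) 5.14 to 7.59 against 7.87 to 9.03 FPKM (adjusted p = 0.240). Of 10 stem cell markers, 1 fell, Mecom, by 0.55 on the log2 scale (adjusted p = 0.0208, 0.409 with the alike libraries averaged), and their summed level was 312.6 to 346.3 against 242 to 287.8 FPKM.

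Of 8 committed myeloid markers tested, the granule protease genes Elane and Ctsg rose (log2 fold change 3.94 and 3.92, adjusted p = 0.0283 and 0.0115), and their summed level, most of it Prtn3, was 159 to 259 against 195.2 to 320.6 FPKM. Of 8 neutrophil markers tested, the granule genes Camp and Ngp and the calprotectin gene S100a8 rose (2.46, 1.73 and 1.40, adjusted p = 0.00546, 0.0254 and 0.0414). The neutrophil sum was 42.1 to 81.1 against 109.9 to 148 FPKM, and Ly6g was near 0, with 0, 0 and 0.0240 against 0.0479, 0.216 and 0.182 FPKM. Of 5 monocyte and macrophage markers tested, none passed (3 at an unadjusted p under 0.05 by limma, 2 by voom), with a sum, most of it Lyz2, of 548 to 590 against 436 to 453 FPKM, and Cx3cr1, Mertk and C1qc stayed at or under 0.115 FPKM. With the alike libraries averaged, none of these marker genes was called by limma (4, 4 and 1 at an unadjusted p under 0.05 in the 3 lists).

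Of 5 basophil, mast cell and eosinophil markers tested, none passed (3 at an unadjusted p under 0.05, none by voom). Prss34, a basophil protease, had 0.185, 11.2 and 9.25 FPKM in Znf143 -/- cells and at most 0.718 FPKM in Znf143 f/f cells, so that the alike Znf143 -/- libraries carried it and the first did not. Of 8 erythroid markers tested, the globin gene Hbb-bt fell (-1.38, adjusted p = 0.0273), and the sum was 71.4 to 242.2 against 66.2 to 71.3 FPKM, with the highest value in the second Znf143 f/f library, most of it Car1 (141 FPKM). Of 7 megakaryocyte markers, none passed (3 at an unadjusted p under 0.05, 1 by voom), with a sum, most of it Pf4, of 545 to 629 against 680.1 to 1017 FPKM. Of 5 lymphoid markers tested, Dntt and Nkg7 rose (4.88 and 0.85, adjusted p = 0.00641 and 0.0122), whereas Cd79a, Ebf1 and Cd3e stayed at or under 0.0836 FPKM. The lymphoid sum was 160.0 to 173 against 256 to 314 FPKM, with Nkg7 the highest gene in it and Cd79b the next. Of 5 endothelial and stromal markers tested, none passed (none at an unadjusted p under 0.05 or by voom), and the sums overlapped at 9.74 to 10.6 against 9.04 to 12.6 FPKM, with Emcn the highest. With the alike libraries averaged, none of the basophil, erythroid, megakaryocyte, lymphoid or endothelial genes was called by limma (1, 3, 2, 2 and none at an unadjusted p under 0.05). Without the first or the third Znf143 f/f library, or the second or the third Znf143 -/- library, the adjusted p of Mecom, Elane, Ngp and Hbb-bt lay between 0.0543 and 0.129, and that of S100a8 between 0.107 and 0.149. S100a8 also missed the threshold without the first Znf143 -/- library (0.0710), Ctsg without the second or the third Znf143 -/- library (0.0545 and 0.0653), and Nkg7 without the first or the third Znf143 f/f or the third Znf143 -/- library (0.0512 to 0.0742). The part of these marker genes in the receptor differences was not tested.

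**Figure D5:**
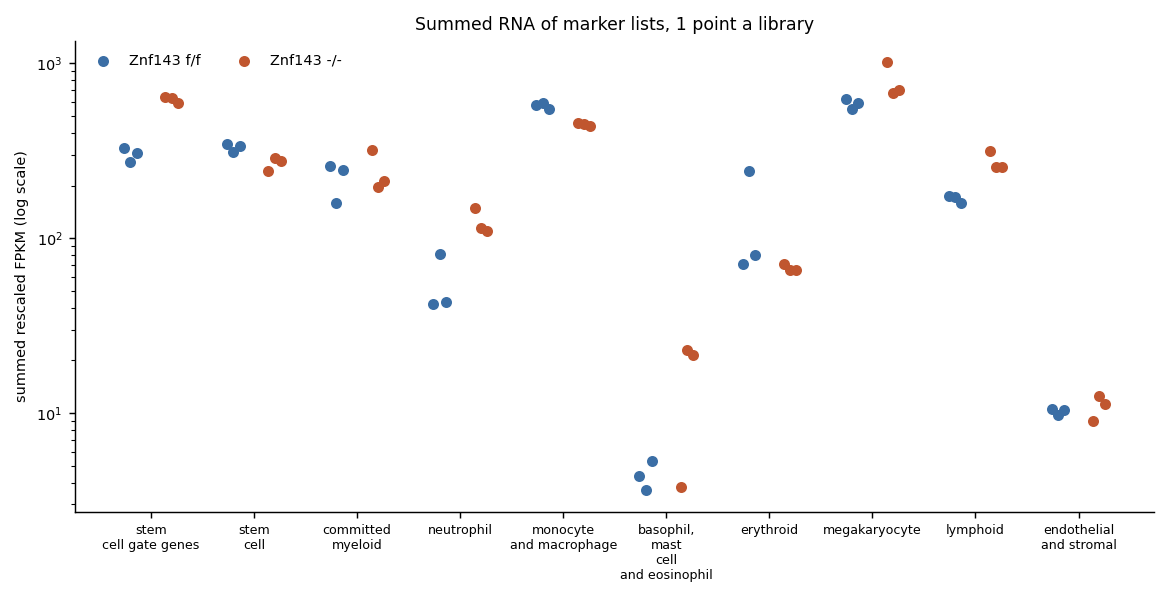
Summed rescaled FPKM (log scale) of the genes of the stem cell gate and of 9 marker lists in each Znf143 f/f (blue) and Znf143 -/- (red) library. The Znf143 -/- libraries lie above all Znf143 f/f libraries for the sums of the gate genes and of the neutrophil, megakaryocyte and lymphoid lists. They lie below them for the stem cell, monocyte and macrophage, and erythroid lists. Most of the gate sum is Ly6a, and Kit alone was lower in each Znf143 -/- library. Nkg7 has the highest level of the lymphoid list.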

How the data were processed

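RNA-seq of 3 Znf143 f/f and 3 Znf143 -/- samples was analysed. The other 19 of the 25 samples of the series (ChIP-seq and HiC) were not used here. The receptor genes and all gene lists were chosen with earlier results of these data known.

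Reads were trimmed (TrimGalore), aligned to GRCm38 (STAR) and counted per gene (FeatureCounts) by the authors, who deposited FPKM for each library beside a gene length. The gene annotation and strand setting are not given in the sources used here. The authors also deposited the results of their own DESeq2 comparison, that is, a mean signal over libraries, a log2 fold change with its error, a test score, a p-value and an adjusted p-value, none of which was used. FPKM times gene length gave whole fragments, within 0.05, for at least 99.9784% of values in each library. A value of 3 fragments per kilobase is worth 0.0514 to 0.0780 rescaled FPKM.

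FPKM were divided by median-of-ratios size factors (0.911 to 1.21). Genes with a mean of at least 0.1 entered a two-sided test by limma 3.58.1 under R 4.3.3 on the log2(FPKM + 0.1) scale (lmFit, and eBayes with a variance trend), with Benjamini-Hochberg adjustment over all genes tested, and a gene was called at an adjusted p under 0.05. Exact permutation tests were two-sided. If samples of a genotype do not come from separate mice, p-values measure a spread that may be technical. Alternatives were FPKM as deposited, the own total of the third Znf143 -/- library as its divisor, constants of 0.01 and 1, no filter, a mean of at least 1, voom, no variance trend, the replicate number as a block, and each library left out. Added after seeing the data were the averaging of alike libraries and the removal of the third library of both genotypes. Positions and overlaps were taken from GENCODE vM21, promoters from RefSeq, and motifs were searched as exact letters on both strands.

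Genes named are the 10 receptors, measured partner chains and decoys, Zfp143, the gate genes, up to 5 called genes of each other list with the largest change, and the markers with the highest level, except that some single genes of the lists are not reported here. Hmgxb3, Gm42809, Spi1 and the markers given as near 0 were named after their values were seen.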

Additional observations from a re-analysis of the deposited data

How the results depend on the processing

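The number of receptor genes called, 3 of 10, was 1 at a mean of at least 1 FPKM, where Csf1r, Il1r1 and Il6ra are no longer tested, and 0 to 4 with 1 library left out. It was 0 with the alike libraries averaged and 0 without the third library of both genotypes, settings with fewer samples. Of all genes, 1154 were called, against 47 and 23 under these settings and 223 to 2280 with 1 library left out. Of the 81 genes tested in the lists of partners, other receptors, ligands, signalling, induced genes, regulators and shedding, 10 were called, against 5 on FPKM as deposited, 5 with the own total of the third Znf143 -/- library as its divisor, 1 with the alike libraries averaged, 0 without the third library of both genotypes, and 4 to 16 with 1 library left out. The cause of the difference on deposited FPKM was not tested.

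The fall of Zfp143 missed the threshold only without the third library of both genotypes (-3.57, adjusted p = 0.0619, of 17 alternatives ranging from 0.000450 to 0.0619), and lay between -3.62 and -3.30 with 1 library left out. Small log2 fold changes that did not pass the test changed sign. Il6ra, at -0.04, was 0.062 on FPKM as deposited, 0.025 with the alike libraries averaged and -0.22 to 0.077 with 1 library left out, above 0 without the second Znf143 f/f or the second or the third Znf143 -/- library. Ifngr1, at 0.0085, was -0.015 with the alike libraries averaged and -0.10 to 0.16 with 1 library left out, below 0 without any of the same 3 libraries. Csf2ra, at 0.076, was -0.042 without the second Znf143 f/f library, in a range up to 0.18 with 1 library left out. The 4 chain ratios that lay apart numbered 4 to 5 with 1 library left out, and the level order in Znf143 f/f cells was the same on FPKM as deposited.

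Same-numbered libraries did not deviate together (correlations of -0.0952, -0.0884 and 0.0353), which does not show whether the numbers mark the pairs of littermates that the study describes. With the replicate number as a block, 191 genes, 0 receptor genes and 3 list genes were called, and 4 chain ratios went 1 way in all same-numbered libraries.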
